A study of Mus musculus with 24 samples.

Results

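The comparison followed gene expression in the dorsal lateral geniculate nucleus (dLGN), the visual relay nucleus of the thalamus, from the day of birth (P0) to postnatal day 4 (P4) in mice that had lost both eyes before birth (embBE). All arrays labelled as embBE dLGN were taken, which gave 3 arrays at P4 and 4 at P0, together 7 of the 24 arrays of the series. The mice were wild type on a C57BL/6 background, and the eyes of embBE mice had been removed on both sides in utero. The nucleus was microdissected from vibratome sections, nuclei of pups of one litter and one condition were pooled into a sample, and the RNA went through repeated amplification before it was hybridized to Affymetrix Mouse Genome arrays. For comparison, the dLGN of control mice with intact eyes had 2 arrays at P0 and 3 at P4, and the ventrobasal complex (VB), the somatosensory relay nucleus, of embBE mice had 3 at each age. Every value is a log2 signal after RMA normalization, and each of 18194 genes was represented by the brightest of its probe sets, judged by the mean of all 24 arrays. Arrays are named by the pair of numbers in their labels, and their values are given in the order 39_2, 39_3, 39_4 and 35_3 at P0 and 24_4, 36_2 and 40_3 at P4.

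Relay neurons of the dLGN normally receive axons from retinal ganglion cells and send their own axons to the primary visual cortex. Around birth these neurons are already postmitotic, while glial cells are still being generated and the synapses of the nucleus are immature. Astrocytes, which clear transmitter and potassium and are joined to each other by gap junctions, mature over the first postnatal weeks, as do the precursors of the myelin-forming oligodendrocytes. In embBE mice this period passes without retinal axons, and the comparison asked which genes of the nucleus still changed with age.

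Some transcription factors of thalamic relay neurons were bright on the arrays. Mean log2 signals at P0 and P4 were 13.84 and 13.68 for Zic1, 12.54 and 12.35 for Tcf7l2, and 12.57 and 11.82 for Foxp2. These are bright members of a list of 19 relay neuron identity genes, which ranged from 5.63 for Nkx6-2 to 13.84 for Zic1 at P0. The 12 genes taken as markers of cortex and hippocampus also ranged widely, from 2.79 for Tbr1 to 10.28 for Cux2 at P0. So did the 13 of the habenula, from 4.28 for Tac2 to 9.25 for Tac1. Both ranges overlapped that of the relay list, so signal alone did not set these markers apart from the dimmer relay genes. In the cortex and habenula lists 0 genes passed the test between the ages. The files used here held no detection calls, so a dim signal could not be told from background.

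The 7 arrays correlated with each other at 0.967 to 0.995. The first principal component of the 12 dLGN arrays held 52.0% of the variance and did not separate the ages, and the second, with 22.3%, put all P0 arrays (13.6 to 24.4) apart from all P4 arrays (−11.4 to −23.5). Along the first component, the P0 array 39_3 lay lowest (−49.3) and had the narrowest spread of signals of the 7, with an SD of 2.16 over all probe sets where the others had 2.22 to 2.37. The gap of the actin control probe sets from the 3′ to the 5′ end, a common measure of RNA integrity, was 3.07 to 4.27 at P0 and 3.33 to 3.94 at P4. Xist, which marks RNA from females, ranged from 7.22 to 11.53 at P0 and from 7.08 to 11.38 at P4. The first label number was 35 or 39 at P0 and 24, 36 or 40 at P4, so its effect and that of age cannot be told apart. A pooled litter is the smallest unit described, and nothing states that arrays with the same first number came from separate litters, and p-values therefore cover only how far these arrays varied, which may be technical.

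**Figure D1:**
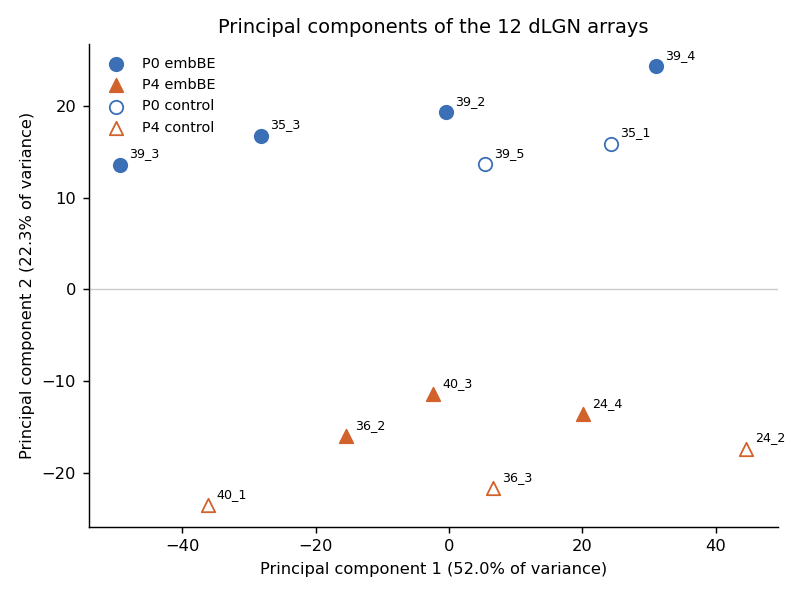
Position of the 12 dLGN arrays on the first (horizontal) and second (vertical) principal components of 18194 genes, with the share of variance on each axis. Filled symbols are embBE and open symbols control arrays, circles P0 and triangles P4, each with its label numbers, and all P0 arrays lie above 0 and all P4 arrays below 0 on the second component.

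From P0 to P4, 173 genes changed in the embBE dLGN, of which 109 rose and 64 fell. A gene was counted when it differed by at least 1.5-fold with a Benjamini-Hochberg adjusted p under 0.05 in limma. These were 0.951% of the genes tested, 0.599% for those that rose and 0.352% for those that fell. Among them 56 rose and 15 fell by at least 2-fold. In all 173 every P4 array lay on one side of every P0 array, as they did in 12.1% of all genes (6.01% higher and 6.04% lower at P4). At the threshold of the study's methods, 1.5-fold with an unadjusted p under 0.05, here from limma, 634 genes were counted (3.48% of those tested). Of these 406 were higher (2.23%) and 228 lower (1.25%) at P4. A Student's t-test on the 7 arrays alone, taken as the methods' own test, gave 491 at that threshold, 313 higher and 178 lower. The median log2 fold change over all genes was 0.01. The count rested on the few arrays: without the P0 array 35_3 it was 90, and without the P4 arrays 24_4, 36_2 or 40_3 it was 49, 36 or 46, while 24 genes rose and 8 fell in each of the 7 fits that left out 1 array.

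The largest increase was in S100b, followed by Thy1, Nexn, Abhd3 and Igf1. S100b, which encodes a calcium-binding protein of astrocytes, had signals of 5.62, 5.2, 4.54 and 6.19 at P0 and 8.30, 7.96 and 7.54 at P4. Its lowest P4 array lay well above its highest P0 array, and the log2 fold change was 2.55 (SE 0.35, adjusted p = 0.00572, limma), or 5.84-fold. The other S100b probe set, somewhat dimmer (mean signal 6.75 against 7.29), rose by only 0.94 (adjusted over all probe sets). On the main probe set the P0 signals of 5.2 and 4.54 lay below 5.27, the limit used to leave out dim probe sets. The size of the increase is therefore uncertain. Thy1, a surface glycoprotein of maturing neurons, had 10.08, 8.76, 9.0 and 9.75 at P0 and 11.74, 11.88 and 11.61 at P4. It rose by 2.34 (SE 0.27, adjusted p = 0.0026, limma), and its P4 arrays lay close together while its P0 arrays were spread. Igf1, the gene of insulin-like growth factor 1, had 6.58, 5.86, 6.22 and 6.34 at P0 and 8.11, 8.65 and 8.36 at P4. It rose by 2.12 (SE 0.25, adjusted p = 0.00275, limma), and of its 3 other probe sets 2 also rose.

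Cck, which encodes the neuropeptide cholecystokinin, had 10.997, 10.82, 10.72 and 10.55 at P0 and 12.99, 12.59 and 12.79 at P4. It rose by 2.02 (SE 0.20, adjusted p = 0.000906, limma), the lowest adjusted p of the comparison, which it shared with 6 other genes. Gja1, the gene of the main connexin of astrocyte gap junctions, had 11.03, 10.50, 10.49 and 11.06 at P0 and 12.45, 12.84 and 12.46 at P4. Its log2 fold change was 1.81 (SE 0.17, adjusted p = 0.000906, limma). The probe set that stood for Gja1 is of a type that can bind related transcripts, and 4 of its other 5 probe sets rose, by 0.64 to 2.64 (adjusted over all probe sets).

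The actin-binding protein gene Nexn (log2 fold change 2.28), the phospholipid hydrolase gene Abhd3 (2.24) and the gene of the secreted glycoprotein Olfm3 (2.02) rose over 4-fold. The Abhd3 signals at P0, 4.11 to 5.26, all lay below the dim limit of 5.27 and could not be told from background, so the size of its rise is uncertain. Nexn had 6.06, 7.66, 6.3 and 7.59 at P0, a wide spread, and 9.14, 9.21 and 9.19 at P4. The others of the 12 largest increases were in Ramp1, a subunit of the receptor for calcitonin gene-related peptide (1.85), Slc39a12, a zinc transporter (1.71), S100a6, another calcium-binding protein (1.66), and Gpr37l1, a receptor of glial cells (1.58). Their adjusted p in limma lay between 0.00417 and 0.0238. Of the 3 probe sets of Ramp1 only the brightest rose, and the others differed by 0.23 and 0.17.

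The largest decrease was in Cd24a, followed by Pdzrn4, Cemip2, Neurog2 and Prr15. Cd24a, which encodes a surface glycoprotein of newly formed neurons, had 11.81, 11.69, 12.56 and 11.93 at P0 and 9.70, 9.59 and 9.68 at P4. The P4 arrays differed little among themselves, and Cd24a fell by 2.34 (SE 0.22, adjusted p = 0.000906, limma), with its other 2 probe sets lower by 1.72 and 2.46. Neurog2, a proneural transcription factor of progenitors and newborn thalamic neurons, had 9.44, 9.61, 8.95 and 8.66 at P0 and 7.42, 7.58 and 7.68 at P4. It fell by 1.61 (SE 0.21, adjusted p = 0.00417, limma). Cemip2, a cell-surface hyaluronidase, had 9.60, 9.03, 9.54 and 9.41 at P0 and 7.76, 7.54 and 7.62 at P4, and it fell by 1.76 (SE 0.16, adjusted p = 0.000906, limma).

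Nkd1, an inhibitor of Wnt signalling, fell by 1.35 (adjusted p = 0.00177, limma) and the transmembrane semaphorin gene Sema4c by 1.22 (adjusted p = 0.00395, limma). The transcription factor gene Bcl11a had 11.15, 10.80, 11.30 and 11.57 at P0 and 9.85, 10.26 and 10.02 at P4, and it fell by 1.16 (SE 0.18, adjusted p = 0.0111, limma). Gjc1, another connexin gene, fell by 1.14 on its main probe set, whereas its other, dimmer probe set (mean signal 9.56 against 10.48) differed by −0.16. The ubiquitin ligase family gene Pdzrn4 (−1.76), Prr15 (−1.38), the complexin gene Cplx2 (−1.21), the sodium channel gene Scn9a (−1.16) and Sdad1 (−1.15), a gene of ribosome assembly, complete the 12 largest decreases. Sdad1 was the tightest of them, with 9.53 to 9.72 at P0 and 8.44 to 8.51 at P4.

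**Figure D2:**
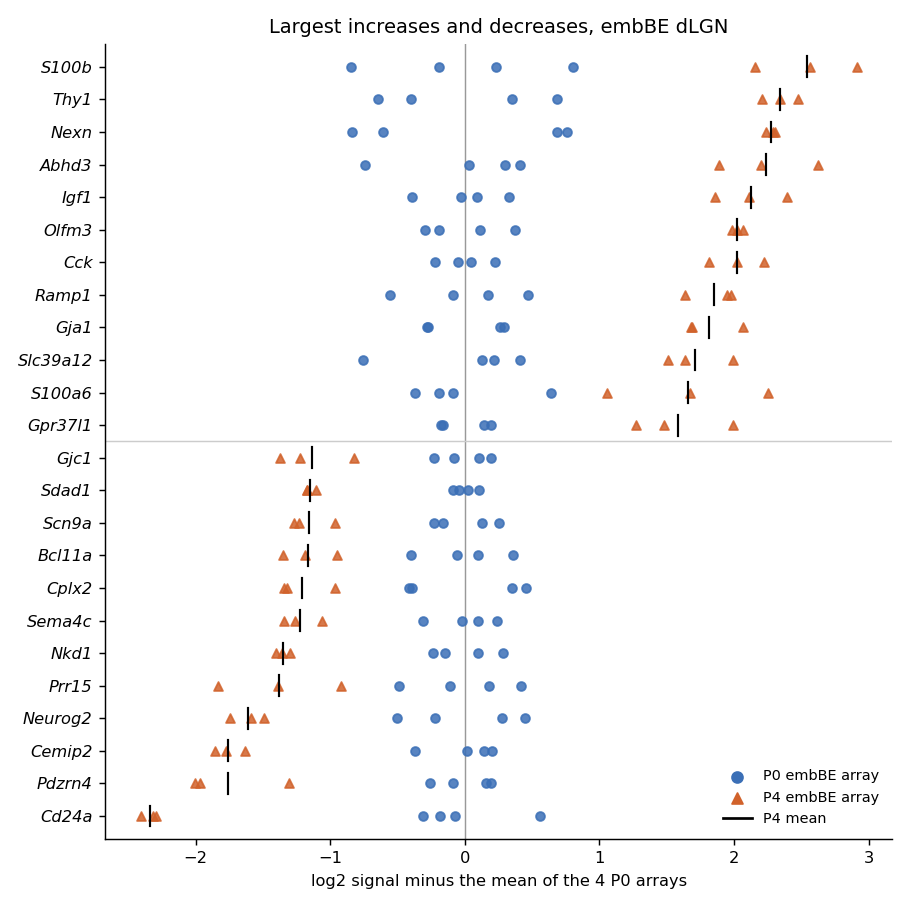
Log2 signal of the 12 largest increases and 12 largest decreases (vertical axis, gene symbols) on each embBE dLGN array, minus the mean of the 4 P0 arrays (horizontal axis). Blue circles are P0 arrays, orange triangles P4 arrays and black bars P4 means. In each gene the circles and triangles do not overlap, and S100b and Cd24a have the largest change of the mean in either direction.

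Astrocyte genes had the highest median change of the 30 lists. Of 27 measured markers 5 rose (0.599% of all genes) and 0 fell. At the threshold of the study's methods 15 were higher (2.23% of all genes), and in 17 of the 27 every P4 array lay above every P0 array (6.01% of all genes). Their median log2 fold change was 0.69, beside 0.01 for all genes, and their values ran from 0.07 for Fgf15 to 2.55 for S100b. Besides S100b and Gja1, these were Ttyh1, a chloride channel of the tweety family (1.17, adjusted p = 0.00508), Slc7a10, a carrier of serine and glycine (0.77, adjusted p = 0.0207), and the growth factor receptor gene Fgfr3 (0.75, adjusted p = 0.0183, all limma). Ttyh1 had 10.60, 10.14, 10.03 and 10.56 at P0 and 11.35, 11.63 and 11.53 at P4, so its groups lay clearly apart. Fgfr3 had 8.0, 7.88, 8.09 and 8.11 at P0 and stood at 8.78, 8.77 and 8.76 at P4.

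Other astrocyte genes shifted the same way without passing the test. The lipoprotein gene Apoe had 10.39, 8.95, 11.11 and 10.07 at P0 and 12.10, 11.80 and 11.63 at P4, a difference of 1.71 (SE 0.42, adjusted p = 0.0797, limma) with a P0 group spread over more than 2 log2 units. The glycolytic enzyme gene Aldoc differed by 1.08 (adjusted p = 0.0602, limma), and the glutamate transporter gene Slc1a3 by 0.71 (adjusted p = 0.0748, limma). The water channel gene Aqp4 had 9.77, 9.32, 9.89 and 9.84 at P0 and 10.54, 11.14 and 10.01 at P4, a difference of 0.86 (adjusted p = 0.136, limma). The filament gene Gfap, which marks mature and reactive astrocytes, differed by 0.44 (adjusted p = 0.596, limma), and the highest of its values was on the P4 array 36_2 (7.61). Kcnj10, which encodes the potassium channel Kir4.1 of glial cells and stood on the list of potassium channels, had 7.97, 7.74, 7.76 and 8.22 at P0 and 8.87, 8.88 and 8.85 at P4, and it rose by 0.95 (SE 0.12, adjusted p = 0.00474, limma).

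The summed linear signal of the 27 astrocyte markers was 16820 to 21776 at P0 and 33112 to 38717 at P4, with no overlap. In RNA of whole nuclei, more cells of a type and more RNA per cell cannot be told apart. When the SD of each array was added to the fit, 16 of the 27 rose (2.25% of all genes rose in that fit), and the count was 3 without any 1 of the P4 arrays.

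The promoters of S100b and Gja1, the astrocyte genes with the largest increases, are shown because nuclear factor I (NFI) proteins are known to act in astrocyte development and bind a half-site with the letters TTGGCA. The windows are the 250 bases before the start of each gene in RefSeq on GRCm38.p6, plus strand, at chr10:76253586-76253835 for S100b and chr10:56377050-56377299 for Gja1, written 5′ to 3′ with any match to TTGGCA or its reverse complement TGCCAA in capitals.
S100b: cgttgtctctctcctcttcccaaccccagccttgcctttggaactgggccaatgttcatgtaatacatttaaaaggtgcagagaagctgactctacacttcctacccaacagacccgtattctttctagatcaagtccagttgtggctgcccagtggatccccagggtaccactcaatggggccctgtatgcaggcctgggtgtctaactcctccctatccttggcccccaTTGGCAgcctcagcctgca
Gja1: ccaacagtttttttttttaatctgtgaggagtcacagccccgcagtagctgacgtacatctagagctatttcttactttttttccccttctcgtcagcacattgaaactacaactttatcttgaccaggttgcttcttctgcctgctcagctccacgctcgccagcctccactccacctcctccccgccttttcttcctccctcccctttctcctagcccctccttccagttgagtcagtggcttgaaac
S100b held 1 match, 19 bases before the start, and Gja1 held none. All 5 astrocyte genes that rose had at least 1 window, and S100b was the only one with a match. Of all 32851 promoter windows 12.3% held a match, and of those of the genes tested 11%. The motif was chosen after the expression values were seen, and a match shows only that these letters occur.

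Among 15 measured genes of oligodendrocyte precursors 1 rose (0.599% of all genes rose), Gpr17, a receptor of precursors that begin to differentiate. It had 7.53, 7.09, 7.07 and 7.23 at P0 and 8.48, 8.91 and 8.37 at P4, with a log2 fold change of 1.35 (SE 0.18, adjusted p = 0.00508, limma). The lineage factor gene Olig1 differed by 1.17 (adjusted p = 0.0816, limma), and the median of the list was 0.39. The summed signal of the list was 7228 to 9285 at P0 and 11431 to 15208 at P4. Of 18 genes of myelin and mature oligodendrocytes 0 passed (median 0.11). The myelin gene Mbp had 7.76, 7.67, 8.62 and 8.30 at P0 and 7.69, 7.96 and 7.42 at P4, and its groups overlapped (−0.40, adjusted p = 0.625, limma). The direction depended on the probe set, since the other Mbp probe sets, all dimmer, differed by −0.62 to 0.87 and the mean over all of them by 0.29.

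No gene of the 50 measured for the cell cycle and mitosis rose or fell. Their median was 0.18, and 6 of them were higher at the threshold of the study's methods (2.23% of all genes) and 0 lower. The proliferation gene Mki67 differed by 0.24 (adjusted p = 0.498, limma). Of 15 genes of radial glia and progenitors only Neurog2 passed, and it fell (0.352% of all genes fell). The summed signal of that list was nevertheless higher at P4, 29512 to 34454 against 21622 to 24894 at P0. In 4 of its genes every P4 array lay above every P0 array (6.01% of all genes). Among these, the fatty acid binding protein gene Fabp7, bright in radial glia and young astrocytes, differed by 0.81 (adjusted p = 0.146, limma). The 11 choroid plexus and ependyma genes summed to 655 to 666 at P0 and 771 to 800 at P4 with 0 that passed, and Otx2 differed most (1.16, adjusted p = 0.224, limma). Microglia and complement (24 genes, median 0.12), endothelial cells (20, median 0.01), mural cells and fibroblasts (21, median 0.05) and blood (5, median 0.03) had 0 genes that passed. The microglial complement gene C1qa had 6.80, 6.43, 7.74 and 7.05 at P0 and 7.28, 7.67 and 6.91 at P4, groups that overlapped.

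Relay neuron identity genes had 0 of 19 members that passed, and 3 that were lower at the threshold of the study's methods (1.25% of all genes). The homeobox gene Gbx2, which is expressed in newborn thalamic neurons, had 8.18, 6.51, 9.05 and 8.17 at P0 and 5.4, 6.67 and 4.57 at P4. Its difference of −2.43 (SE 0.73, adjusted p = 0.166, limma) was as large as that of the strongest changed genes, but the P0 array 39_3 and the P4 array 36_2 overlapped. Lhx2 (−1.05, adjusted p = 0.0939) and Foxp2 (−0.75, adjusted p = 0.086, limma) were the others. The nuclear receptor gene Rorb had 7.12, 6.01, 7.49 and 7.58 at P0 and 7.05, 7.79 and 7.66 at P4 (0.45, SE 0.32, adjusted p = 0.691, limma). Its relative Rora differed by 0.05 (adjusted p = 0.977, limma), with 11.28 to 12.36 at P0 and 11.57 to 12.16 at P4. Of 21 genes of GABAergic neurons 0 passed, and Sox14, a factor of thalamic interneurons, differed by 0.26 (adjusted p = 0.595, limma).

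Of 30 genes of immature neurons and axon growth only Cd24a changed (median −0.03). Of 48 axon guidance genes only Draxin, a repulsive guidance protein, changed. It had 9.30, 8.84, 9.35 and 9.26 at P0 and 8.23, 8.17 and 8.43 at P4, and it fell by 0.91 (SE 0.15, adjusted p = 0.0156, limma). Of 21 genes of neurofilaments and mature axons only Thy1 changed. Beside these 3 lists, 0.951% of all genes changed, 0.599% rising and 0.352% falling.

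Synaptic genes changed in both directions. Of 38 genes of vesicle release 2 rose (0.599% of all genes) and 1 fell (0.352% of all genes). The synaptic vesicle gene Sv2b had 7.74, 7.35, 7.39 and 7.40 at P0 and 8.42, 8.56 and 8.52 at P4, and it rose by 1.03 (SE 0.16, adjusted p = 0.0112, limma). Unc13c, which primes vesicles for fusion, had 10.28, 9.69, 10.32 and 9.82 at P0 and 11.24, 10.95 and 11.24 at P4, and it rose by 1.12 (SE 0.23, adjusted p = 0.0405, limma). Cplx2, which regulates the fusion step, had 9.67, 9.65, 10.41 and 10.51 at P0 and 9.10, 8.72 and 8.74 at P4, and it fell by 1.21 (SE 0.22, adjusted p = 0.0224, limma). Another Cplx2 probe set of nearly the same brightness differed by −0.30. Of the 7 fits that left out 1 array, Sv2b passed in 4, Cplx2 in 3 and Unc13c in 1. The auxiliary AMPA receptor subunit gene Cacng5 had 7.64, 7.35, 7.36 and 7.28 at P0 and 8.73, 8.64 and 8.71 at P4. It rose by 1.28 (SE 0.16, adjusted p = 0.00417, limma), alone among 17 genes of AMPA and kainate receptors (0.599% of all genes rose).

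Transmitter receptor and transporter genes that are often used to stage thalamic neurons did not pass. None of 6 NMDA receptor genes passed. Grin2b, the subunit of immature receptors, had 10.29, 9.98, 9.83 and 10.06 at P0 and 9.37, 9.99 and 10.27 at P4 (−0.16, adjusted p = 0.88, limma), and Grin2a, the subunit that comes later, was dim at both ages (3.78 and 3.82 on average). The chloride exporter gene Slc12a5 differed by 0.32 (adjusted p = 0.682, limma), the vesicular glutamate transporter genes Slc17a6 by 0.48 (adjusted p = 0.789, limma) and Slc17a7 by 0.09 (adjusted p = 0.888, limma), and the synapse organiser gene Lrrtm1 by 0.53 (adjusted p = 0.361, limma). The serotonin transporter gene Slc6a4, which relay neurons express for a time after birth, had 7.41, 7.55, 8.29 and 8.03 at P0 and 9.35, 8.48 and 8.88 at P4. Its P4 arrays all lay above its P0 arrays, but the difference of 1.09 (SE 0.35, adjusted p = 0.196, limma) did not pass.

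Among ion channels, Kcnj10 rose and Kcnh2, an ERG potassium channel, fell by 0.80 (SE 0.14, adjusted p = 0.0215, limma), out of 49 potassium channel genes. Of all genes 0.599% rose and 0.352% fell. Kcnh2 had 9.13, 9.70, 9.38 and 9.46 at P0 and 8.55, 8.75 and 8.57 at P4. Of 24 sodium, calcium and HCN channel genes only Scn9a changed (0.951% of all genes changed). It had 8.05, 8.12, 8.40 and 8.53 at P0 and 7.01, 7.31 and 7.04 at P4, and it fell by 1.16 (SE 0.20, adjusted p = 0.0207, limma). Cacna1g, the T-type calcium channel of relay neuron bursts, differed by −0.09 (adjusted p = 0.925, limma) and the pacemaker channel gene Hcn2 by −0.16 (adjusted p = 0.826, limma).

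Nuclear-encoded subunits of oxidative phosphorylation had a median of 0.26 over 71 genes, and 0 passed the adjusted test. At the threshold of the study's methods 4 of them were higher (2.23% of all genes) and 0 lower. Under cyclic loess normalization that median was 0.17. Cytosolic ribosomal protein genes had a median of 0.25 (44 genes) and 0 that passed. Activity-regulated genes (26, median −0.03) and genes of cholesterol and fatty acid synthesis (26, median 0.00) also had 0. In all, 17 genes of the lists changed out of 742, beside 0.951% of all genes, and 20 of the 30 lists had none.

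**Figure D3:**
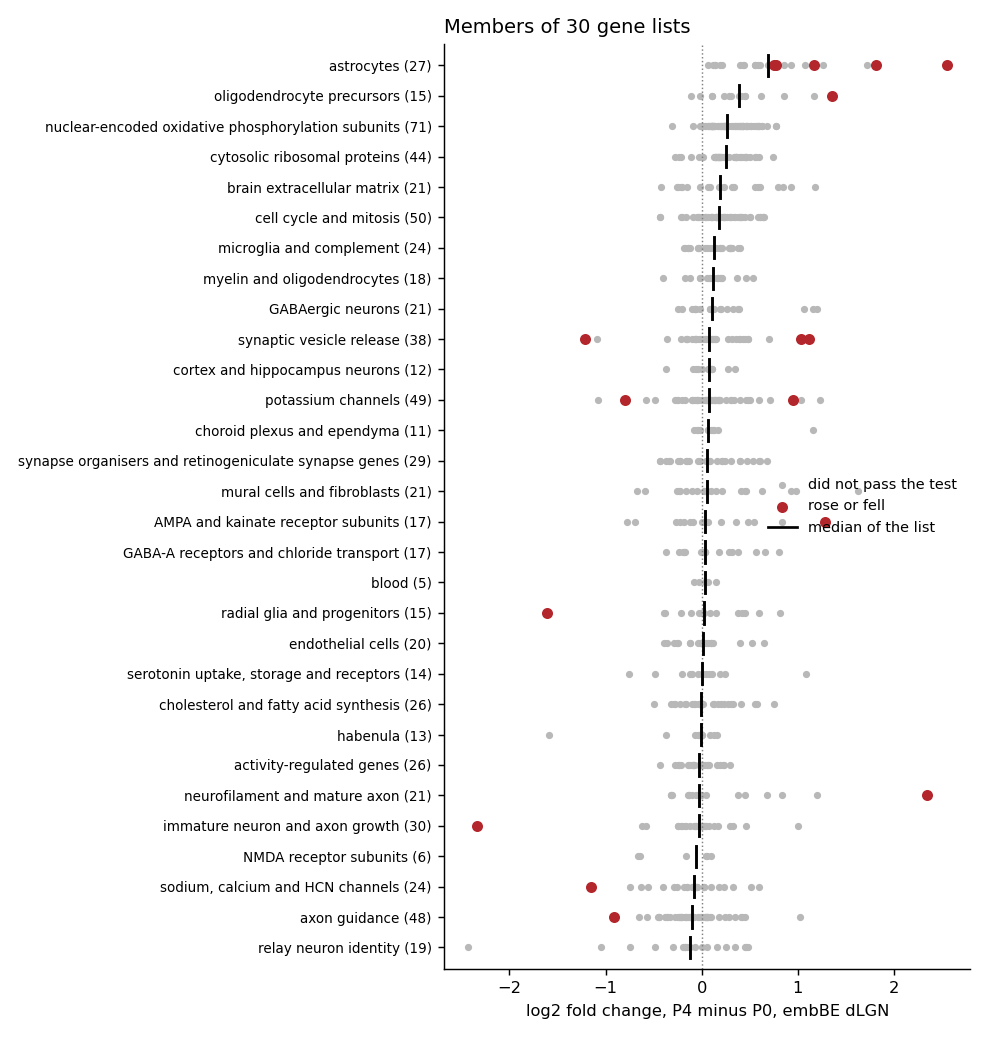
Log2 fold change from P0 to P4 in the embBE dLGN (horizontal axis) of each measured member of 30 gene lists (rows, number of members in parentheses), ordered by median. Grey points did not pass the test, red points rose or fell and black bars are list medians, and the astrocyte list at the top has the highest median (0.69) and 5 red points.

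To ask whether the same genes changed with eyes intact, the change from P0 to P4 was taken from the control dLGN, which shares no array with the embBE comparison. Control and embBE arrays did share first label numbers, 35 and 39 at P0 and 24, 36 and 40 at P4, so a change with age in both groups and an effect of these numbers cannot be told apart. Of the 109 genes that rose in embBE, 106 also had a positive difference in the controls, as did 56.1% of all genes, and 82 were at least 1.5-fold higher there (1.67% of all genes). Of the 64 that fell, all 64 had a negative difference in the controls and 44 were at least 1.5-fold lower (3.06% of all genes). The median of the genes that rose was 1.02 in embBE and 0.79 in the controls, and that of the genes that fell −0.80 and −0.79. The genes were chosen on the embBE arrays, so their medians there are no test against the controls. Over all genes the log2 fold changes correlated at r = 0.62, across genes that are not independent replicates.

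S100b differed by 2.05, Thy1 by 2.22, Igf1 by 2.38 and Gja1 by 1.61 in the control dLGN, and Cd24a by −2.82. In the control dLGN alone 102 genes changed (0.561%). When the change with age was tested for a difference between embBE and control with limma, 0 genes passed after adjustment. Of the 18194 genes, 143 had an unadjusted p under 0.05, fewer than the share of 0.05 that evenly spread p-values would give. At 1.5-fold and an unadjusted p under 0.05 there were 76 (0.418%), a count that was 50 or 225 without the P0 embBE arrays 39_3 or 39_4, 115 without the P0 control array 39_5 and 291 without the P4 control array 24_2. The 95% interval of the difference was −0.39 to 0.79 for Gja1, −0.69 to 1.68 for S100b, −0.80 to 1.05 for Thy1 and −0.25 to 1.21 for Cd24a. With 2 control arrays at P0, differences inside these bounds are not excluded. Among named genes that changed, the interval left out 0 for Kcnh2 (−1.14 to −0.19) and Cplx2 (0.19 to 1.67). These intervals are not adjusted for the number of genes, and the adjusted p of both was 0.9997 in limma.

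Named as the largest differences at the unadjusted threshold were the fibrillar collagen genes Col3a1 (embBE minus control 2.13) and Col1a2 (1.23), the serotonin receptor gene Htr2c (1.61), Reln, the gene of the secreted protein reelin (1.42), and Proser2 (1.17), each with an adjusted p of 0.9997 in limma. Col3a1 had 4.92, 4.68, 4.71 and 5.35 in embBE at P0 and 6.58, 7.66 and 5.37 at P4. Its P4 value was highest on array 36_2, which also had the highest Col1a2 (9.20, with 7.85 and 7.28 on the other P4 arrays). Without that array the difference was 0.69 for Col1a2 and 0.997 for Htr2c. The difference of Reln was 0.57 without the P0 control array 39_5 and 2.27 without the P0 control array 35_1. The summed signal of the 21 mural cell and fibroblast genes was 3730 to 4854 at P0 and 4081 to 4524 at P4, so it did not separate the ages, and its part in these differences was not tested.

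**Figure D4:**
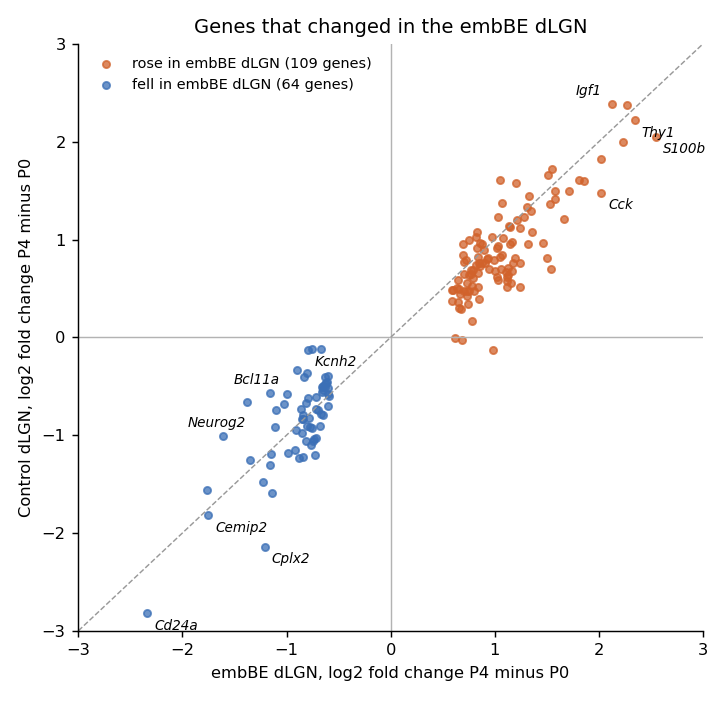
Log2 fold change from P0 to P4 of the 173 genes that changed in the embBE dLGN, in the embBE dLGN (horizontal axis) and in the control dLGN (vertical axis). Orange points rose and blue points fell in embBE, the dashed line marks equal change, and nearly all points lie in the quadrants of equal sign, with 3 of the genes that rose at or just below 0 in the controls.

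The change of the embBE dLGN was also set beside that of the embBE VB, a nucleus that does not receive retinal axons, in a fit of all 24 arrays. The VB arrays carried the same pairs of label numbers as 6 of the dLGN arrays. The actin gap differed between the nuclei. It was 3.07 to 4.27 in the dLGN but 2.25 to 2.55 at P0 and 1.98 to 2.05 at P4 in the VB. Whether RNA integrity or amplification set this gap, and its part in the differences, was not tested. In the VB, 430 genes changed (2.36%), and in the same fit 344 changed in the dLGN. Of the 109 genes that rose in the dLGN, 107 had a positive difference in the VB, as did 41.8% of all genes, and 76 were at least 1.5-fold higher (4.11% of all genes). Of the 64 that fell, 60 had a negative difference in the VB and 20 were at least 1.5-fold lower (0.78% of all genes). Astrocyte genes had a median of 0.82 in the VB, and 14 of 27 rose there (1.96% of all genes rose), beside 11 of 27 in the dLGN in the same fit (1.17% of all genes rose).

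A test of the difference between the nuclei passed for 10 genes (0.055%), 2 with the higher change in the dLGN and 8 in the VB. Most of these changed in the VB and did not pass the test in the dLGN. The potassium channel gene Kcna1 had 8.11, 8.24, 8.16 and 7.98 in the dLGN at P0 and 7.93, 8.53 and 8.38 at P4, and 8.20, 8.62 and 8.34 in the VB at P0 and 9.84, 10.16 and 10.14 at P4. Its dLGN groups overlapped and its VB groups lay apart, and the changes differed by −1.5 (SE 0.22, adjusted p = 0.0125, limma). Plekhd1 had 4.80 to 5.49 in the dLGN at P0 and 5.13 to 5.52 at P4, but 5.21 to 5.54 in the VB at P0 and 7.18 to 7.94 at P4 (difference −2.09, adjusted p = 0.0125, limma). The trophoblast glycoprotein gene Tpbg (−1.64), the cell polarity gene Patj (−1.39) and the AP-1 gene Fosl2 (−1.03) also overlapped between the ages in the dLGN and lay apart in the VB (adjusted p = 0.0431 each, limma). The Rac activator gene Tiam1 had 8.23 to 8.78 in the dLGN at P0 and 8.03 to 8.21 at P4, and 9.03 to 9.46 and 9.97 to 10.13 in the VB, so it was lower at P4 on every dLGN array, though without passing the test there, and higher on every VB array (difference −1.16, adjusted p = 0.0431, limma). Another potassium channel gene, Kcnh5, passed as well (−1.27, adjusted p = 0.0156, limma), but its signals did not exceed 4.57 on any of these arrays, below the limit of 5.27 used to leave out dim probe sets, and could not be told from background. Tiam1 and Fosl2 were already brighter in the VB than in the dLGN at P0. Control arrays showed a like difference between the nuclei in Kcna1, Plekhd1, Tpbg, Patj and Fosl2, which was not tested there. Kcna1 had 8.24 and 8.27 in the control dLGN at P0 and 8.33 to 8.41 at P4. In the control VB it had 8.23 to 8.45 at P0 and 9.10 to 9.74 at P4. Plekhd1 had 5.03 and 5.21 in the control dLGN at P0 and 5.01 to 5.62 at P4. In the control VB it had 5.17 to 5.53 at P0 and 7.10 to 7.75 at P4. From P0 to P4 in the control VB, Tpbg went from 5.57 to 6.21 up to 6.76 to 7.31, Patj from 6.60 to 6.68 up to 7.43 to 7.87, and Fosl2 from 7.80 to 7.81 up to 8.34 to 8.76. Their control dLGN values were 5.51 and 6.18, then 5.12 to 5.65 (Tpbg), 6.13 and 6.26, then 6.55 to 6.56 (Patj), and 7.05 and 7.37, then 7.24 to 7.51 (Fosl2). Tiam1 was higher at P4 in the control dLGN too (8.16 and 8.28, then 8.37 to 8.53).

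Aqp4 differed in where it started. It had 9.32 to 9.89 in the dLGN at P0 but 6.71, 6.81 and 7.14 in the VB, and 10.01 to 11.14 and 10.55 to 11.16 at P4, so the nuclei overlapped at P4 (difference −3.05, SE 0.51, adjusted p = 0.0248, limma). Other astrocyte genes did not pass this test, and the difference was −0.79 for S100b (adjusted p = 0.9997, limma) and 0.33 for Gja1 (adjusted p = 0.9997, limma). Car3, a carbonic anhydrase gene, had 5.45, 4.85, 5.01 and 5.39 in the dLGN at P0 and 6.09, 6.94 and 5.96 at P4, and 8.03, 8.50 and 8.13 in the VB at P0 and 6.81, 6.69 and 7.36 at P4. It was brighter on every VB array at P0 and overlapped between the nuclei at P4, and its changes of 1.15 and −1.27 went in opposite directions (difference 2.42, SE 0.38, adjusted p = 0.0156, limma). The rise of Car3 in the dLGN passed in 0 of the 7 fits that left out 1 dLGN array. Its other probe sets, all dimmer, differed in the dLGN by 0.26, −0.0045 and −0.09. The dLGN signals of 4.85 and 5.01 at P0 lay below the dim limit of 5.27. The control nuclei also lay apart at P0, with 5.83 and 6.11 for Car3 in the dLGN and 7.54 to 8.28 in the VB. For Aqp4 they had 9.63 and 9.95 in the dLGN and 6.41 to 8.35 in the VB. At P4 the control nuclei overlapped, with 6.29 to 6.71 in the dLGN and 6.68 to 7.66 in the VB for Car3. For Aqp4 the P4 values were 10.81 to 11.335 in the control dLGN and 10.47 to 11.22 in the control VB. Pcp4, a calmodulin-binding protein gene, rose by 0.86 in the dLGN and differed by 0.13 in the VB, where it was already high at P0 (difference 0.72, adjusted p = 0.0407, limma). In controls Pcp4 had 12.97 and 12.99 in the dLGN at P0 and 13.63 to 13.785 at P4. Its control VB values were 13.51 to 13.76 at P0 and 13.81 to 13.97 at P4. Cplx2 fell in the dLGN and differed by 0.69 in the VB, but the test of the difference did not pass (adjusted p = 0.126, limma). The cadherin gene Cdh4 overlapped between the ages in the dLGN (−1.65, adjusted p = 0.0869, limma), differed by 0.31 in the VB, and did not pass the test of the difference either (adjusted p = 0.671, limma). The count of 10 was 0 without the VB arrays 35_3 at P0 or 36_2 at P4, and 3 to 6 without any of the other VB arrays or any P4 dLGN array.

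**Figure D5:**
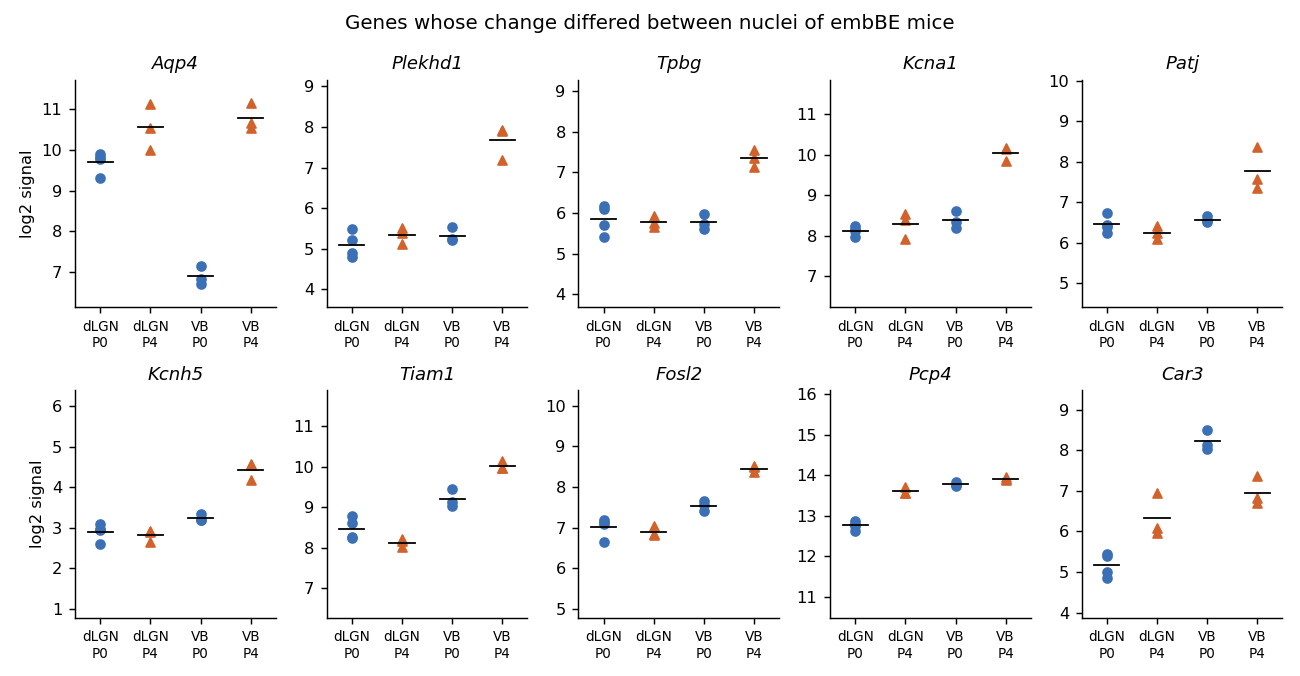
Log2 signal (vertical axis, the same span in each panel) of the 10 genes whose change from P0 to P4 differed between the dLGN and the VB of embBE mice. Each point is an array, blue circles are P0 and orange triangles P4, and black bars are group means; in Kcna1, Plekhd1, Tpbg, Patj and Kcnh5 the ages are apart in the VB and overlap in the dLGN.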

How the data were processed

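RNA of microdissected dLGN and VB was measured on 24 arrays. Per the labels and the study's methods, the authors deposited log2 signals of 45101 probe sets after RMA normalization in Partek, and these were used as deposited. Probe sets with 1 mouse symbol in the platform annotation (34958) were kept, those with several (932) or no listed gene (9211) were left out, and the brightest of a gene by mean over the 24 arrays represented it. Group means of the 12 dLGN arrays (24 arrays for the VB) entered limma 3.58.1 (R 4.3.3), and the procedure was tested on simulated data. The simulated noise was drawn for each gene on its own, so it held no shift shared by the genes of an array. The arrays held no reads, so their number limits the precision.

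The genes named were the 12 largest increases and decreases among changed genes without overlap (predicted or unnamed clones and sex-linked genes passed over), up to 6 changed members of each list, a set given whatever its value (Rorb, Rora, Grin2a, Grin2b, Slc6a4, Slc12a5, Slc17a6, Slc17a7, Fgf15, Lrrtm1, Gfap, Mbp, C1qa, Sox14, Hcn2, Cacna1g), and the 5 largest differences at the study's threshold in each test between conditions or nuclei, passed over likewise. Not every gene first placed in that set is listed or reported here. Other genes were named after their values were seen. The comparison and the gene lists were chosen with earlier results of these data known. Of 847 list entries 757 were measured. A planned search of promoters of cell cycle genes that fell had 0 members. Alternatives were the methods' t-test, other choices of probe sets, arrays, normalization and variance model, a block for label numbers, each array left out, and, added after the data were seen, the SD of each array as a covariate.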

Additional observations from a re-analysis of the deposited data

Results flagged for a closer look

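In 3 of the named genes 1 of the 4 P0 embBE arrays lay far from the rest by Dixon's criterion, which flags about 1 in 20 groups by chance. Sv2b was high on array 39_2 (7.74, with 7.35 to 7.40 on the others). Draxin (8.84, with 9.26 to 9.35 on the others) and Fgf15 (5.36, with 5.61 to 5.63 on the others) were low on array 39_3, the array with the narrowest spread of signals.

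For 10 genes the change from P0 to P4 in embBE mice differed between the dLGN and the VB in a test of the difference itself (limma, adjusted p of 0.0125 to 0.0431). The dLGN change minus the VB change was negative for Aqp4 (−3.05), Plekhd1 (−2.09), Tpbg (−1.64), Kcna1 (−1.5), Patj (−1.39), the dim gene Kcnh5 (−1.27), Tiam1 (−1.16) and Fosl2 (−1.03). It was positive for Pcp4 (0.72) and Car3 (2.42). Opposite signs in the 2 nuclei were seen for Car3 (1.15 in the dLGN, −1.27 in the VB) and Tiam1 (−0.34 and 0.82), among others.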

How the results depend on the processing

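The 173 changed genes became 0 by the methods' t-test after Benjamini-Hochberg adjustment. By that test 1969 had an unadjusted p under 0.05, and 491 of them differed by at least 1.5-fold. In limma the count was 339 with every probe set counted, 88 with only the 7 embBE dLGN arrays fitted and 344 with all 24. It was 633 with the SD of each array as covariate (chosen after the data were seen), 634 at the study's threshold, and 36 to 209 with 1 array left out. The other 6 alternatives gave 142 to 253. The 17 changed list genes became 29 under cyclic loess, 75 with the SD covariate and 9 to 27 with 1 array left out, and the 5 astrocyte genes 9, 16 and 3 to 7. The 10 genes that differed between dLGN and VB were 0 to 9 with 1 array left out. The 0 genes that differed between embBE and control stayed 0 in every alternative run. No named gene that changed reversed. Of those that did not pass, Rora was −0.0091 under cyclic loess and −0.0045 with the SD covariate, and Mbp 0.29 with the mean of its probe sets. With 1 array left out, Rora ranged from −0.1552 to 0.2434, Grin2a from −0.0571 to 0.1936, Cacna1g from −0.1692 to 0.0071, Fgf15 from −0.0302 to 0.2241 and Grin2b from −0.358 to 0.094. No paired analysis was possible because the P0 and P4 arrays share no label numbers; for dLGN minus VB, the pair of numbers as a replicate block gave 10 genes, as without it (same-number correlations of deviations −0.15 to 0.19). Of 22 changed named genes with several probe sets, all probe sets had the same sign in 19, and at least 2 changed in 8. The cause of these changes was not tested.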

Other observations

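Other groups were seen among the 173 genes, named here after their values were seen and with no test of the group. Over all genes 0.599% rose and 0.352% fell. Of 15 measured genes of S100 calcium-binding proteins 5 rose, S100b, S100a6, S100a16 (log2 fold change 1.33), S100a1 (1.24) and S100a13 (0.73), and 0 fell. Of 22 glutathione transferase genes, which detoxify reactive compounds, Mgst1 (1.03), Gsta4 (0.97) and Mgst3 (0.90) rose. Of 4 Id genes, inhibitors of basic helix-loop-helix factors, Id2 (1.11) and Id3 (0.77) rose, while Hes6, a basic helix-loop-helix gene of differentiating neurons, fell by 1.11 (9.76, 9.96, 9.98 and 10.10 at P0 and 8.88, 8.89 and 8.75 at P4). Igfbp2, which binds insulin-like growth factors, rose with Igf1 (1.5, with 6.87 to 7.94 at P0 and 8.77 to 9.35 at P4), out of 9 genes of that family. Of 22 genes of acyl-CoA dehydrogenases and thioesterases, which act in fatty acid metabolism, Acot1 (1.12) and Acadl (0.79) rose. Of 16 carbonic anhydrase genes Car4 (1.58) and Car3 rose, though Car3 passed in 0 of the 7 fits that left out 1 array. Of 14 connexin genes Gja1 rose and Gjc1 fell. The medians of these families lay between 0.03 for the carbonic anhydrases and 0.60 for the Id genes. Gal, the gene of the neuropeptide galanin, rose by 1.17 and Hdc, the enzyme that makes histamine, by 1.32.

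Of the genes that fell, Nolc1 (−0.98) acts in the nucleolus, Rbm25 (−0.68) and Snrpd3 (−0.63) in splicing, and Suz12 (−0.62) and Chd8 (−0.60) on chromatin. The metabotropic glutamate receptor gene Grm5 fell by 0.88. Crabp2, which binds retinoic acid, did not pass (−2.37, adjusted p = 0.103, limma), with 9.10, 6.61, 9.45 and 9.05 at P0 and 5.96, 7.0 and 5.59 at P4; its P0 array 39_3 lay among the P4 arrays.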
